A study of Mus musculus with 12 samples.

Results

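The CREB, CRTC and salt-inducible kinase axis was examined in the mouse liver through 10 genes, taken as the rows of the deposited expression table that bear their symbols. These are 10 of 55385 features, and all 10 passed the filter of a mean of at least 1 TPM, a measure of transcript abundance per transcript length and library total, over the 12 mice. They comprise the transcription factors Creb1, Crem and Atf1, the coactivators Crtc1, Crtc2 and Crtc3, the kinases Sik1, Sik2 and Prkaca, and the nuclear receptor gene Nr4a1. Liver RNA was sequenced from C57BL/6 male mice injected at 7 weeks of age with adenovirus, at 500000000 active viral particles per group. The livers were taken 7 days after injection, with 4 mice in each of 3 groups. All mice carried adenovirus. Ad-Ctrl mice received Lac and pAdV5 viruses, Ad-shmGULL mice received a virus with an shRNA against the mouse long noncoding RNA mGULL together with pAdV5, and Ad-shmGULL+hGULL mice received the shRNA virus with one that expresses the human transcript hGULL. The sources used here disagree on the route of injection and do not say which shRNA the virus carried. The levels of mGULL and hGULL in these libraries were not analysed here.

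CREB family factors bind the cAMP response element (CRE) in gene promoters. Glucagon raises cAMP in hepatocytes, protein kinase A (catalytic subunit encoded by Prkaca) then phosphorylates CREB, and the CRTC coactivators, once dephosphorylated, enter the nucleus and join it. Salt-inducible kinases phosphorylate CRTC proteins and hold them in the cytoplasm, and Sik1 is itself a CREB target. In the liver this axis is best known for driving the fasting genes Pck1, G6pc and Ppargc1a, and CRTC2 has a further role at the COPII coat, where it binds Sec31A. The study asked how hGULL and mGULL act through CRTC2, so the comparisons below ask whether the transcripts of this axis, its upstream signalling genes and its targets differed between the groups. RNA level says nothing of phosphorylation or of where a protein resides.

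Promoters are shown for 1 member that is itself a CREB target (Nr4a1), for 1 member of the CREB family (Atf1) and for a pair of gluconeogenic target genes (Pck1 and G6pc), because the results below differ among these genes. Each runs from 250 bases before to 50 bases after a RefSeq transcript start in the GRCm38.p6 build, 5′ to 3′ in the direction of the gene, all on the plus strand. Capitals mark every copy of the CRE core, TGACG on either strand (CGTCA when read on the other strand).
Nr4a1, chr15:101266596-101266895: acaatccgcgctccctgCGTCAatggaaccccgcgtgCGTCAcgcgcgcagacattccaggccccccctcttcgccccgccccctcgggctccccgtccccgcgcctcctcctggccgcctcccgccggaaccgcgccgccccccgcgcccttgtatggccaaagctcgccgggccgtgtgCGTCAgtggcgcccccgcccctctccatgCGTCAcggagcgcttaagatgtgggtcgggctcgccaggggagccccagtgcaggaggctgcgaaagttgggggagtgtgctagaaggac
Atf1, chr15:100227609-100227908: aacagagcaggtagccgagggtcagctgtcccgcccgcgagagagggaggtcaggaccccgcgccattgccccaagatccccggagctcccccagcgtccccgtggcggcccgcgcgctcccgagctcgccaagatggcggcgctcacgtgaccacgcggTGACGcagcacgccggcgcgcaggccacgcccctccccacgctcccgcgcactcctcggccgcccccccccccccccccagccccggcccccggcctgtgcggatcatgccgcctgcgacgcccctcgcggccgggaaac
Pck1, chr2:173152823-173153122: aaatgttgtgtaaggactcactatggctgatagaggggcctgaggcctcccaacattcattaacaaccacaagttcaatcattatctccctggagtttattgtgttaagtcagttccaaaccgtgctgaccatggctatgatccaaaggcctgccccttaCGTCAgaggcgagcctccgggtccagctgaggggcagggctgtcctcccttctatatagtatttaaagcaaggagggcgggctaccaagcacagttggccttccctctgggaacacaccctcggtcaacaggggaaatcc
G6pc, chr11:101367466-101367765: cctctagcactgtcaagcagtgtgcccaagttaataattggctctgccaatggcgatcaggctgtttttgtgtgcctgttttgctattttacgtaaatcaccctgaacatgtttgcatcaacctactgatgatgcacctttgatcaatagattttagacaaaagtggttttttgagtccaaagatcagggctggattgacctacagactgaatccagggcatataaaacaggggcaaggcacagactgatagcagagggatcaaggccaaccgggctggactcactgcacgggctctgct

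The Nr4a1 window held 4 cores, beginning at positions -233, -213, -69 and -40 from the start. This window lies within the annotated gene (chromosome 15, 101253902 to 101274795), which also has a start upstream. Atf1 and Pck1 each held 1, both at -90, and the G6pc window held 0. The full palindromic CRE, TGACGTCA, which contains a core on each strand, the copies overlapping, was in none of these 4 windows. Of 32851 promoter windows of the same length, 20.8% held a CRE core and 1.79% a full CRE. Promoter sequence was matched for 7 of the 10 members. Of the others among these, Prkaca and Sik2 had 2 cores each (Prkaca in its first listed promoter), and Creb1, Crtc1 and Crtc3 had 0. Only exact copies of these letters were counted, so an element spelled with other letters would be missed. A match of letters is a description and not evidence of binding, and the lack of one is not evidence against binding.

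Between 15525 and 16929 genes per mouse exceeded 1 TPM, and the correlation of log2(TPM + 1) between any 2 libraries ranged from 0.980 to 0.993. The libraries differed in composition. Their 20 highest genes held 29.6% to 33.3% of the TPM in Ad-Ctrl, 27.3% to 34.3% in Ad-shmGULL and 24.9% to 26.8% in Ad-shmGULL+hGULL. Every rescue mouse was below every control mouse in this share. Its part in the fold changes below was not tested. TPM sum to 1000000 in every mouse, so the read depth is unknown and the precision of each gene rests on the spread between 4 mice. The liver label was checked against its defining markers, and 6 of 6 hepatocyte markers were above 0 in every mouse, with a summed level of 65910 to 110098 TPM. Values were compared as log2(TPM + 1) in 1 limma model for the 16378 genes that passed the filter, and "rose" or "fell" is used only for a Benjamini-Hochberg adjusted p under 0.05 over all of them. Fold changes below are on this scale, which draws low genes toward 0, with their 95% intervals. Over all genes tested, the median change was 0.09 after knockdown, 0.09 between rescue and knockdown, and 0.17 between rescue and control on the log2 scale. With median-of-ratios scaling all 3 medians shifted to near 0 (-0.009, 0.01 and -0.006 in that order), so small positive changes are close to the bulk of genes.

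**Figure D1:**
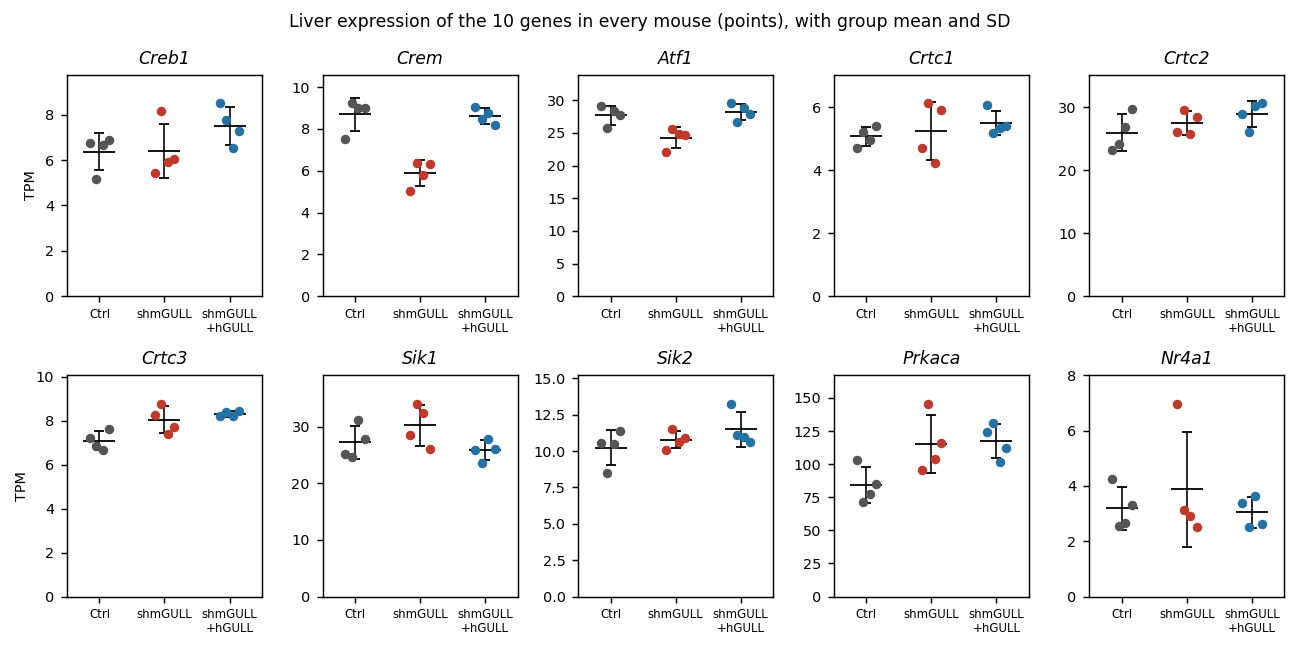
TPM (linear axis from 0, own scale in each panel) of the 10 members in each mouse. Points are mice, bars the group mean and SD (n = 4). The 4 Ad-shmGULL mice lie below all other mice only for Crem (5.02 to 6.37 TPM) and Atf1 (22.0 to 25.6 TPM).

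All 10 members were expressed, over a range of levels. TPM is per transcript length, so levels can be set side by side between genes. The length used for each gene is not known here, so this order is approximate. Prkaca was the highest, with 84.2 ± 13.9 TPM (SD, n = 4) in Ad-Ctrl, and its 4 mice lay above those of every other member. Atf1, Sik1 and Crtc2 followed at 27.7, 27.2 and 26.0 TPM on average, with overlapping mice. Sik2 (10.2 TPM), Crem (8.69), Crtc3 (7.09), Creb1 (6.37) and Crtc1 (5.08) came next, each overlapping its neighbour in that order. Nr4a1 was the lowest at 3.20 TPM, apart from Crtc1 in Ad-Ctrl and in the rescue group and overlapping it in Ad-shmGULL. Within the CRTC family, Crtc2 had the highest TPM, and within the CREB family it was Atf1 rather than Creb1. Prkaca stayed first and Nr4a1 last in the other groups, while Atf1, Sik1 and Crtc2 changed places among themselves. Crem ranked 6 of 10 in Ad-Ctrl and in Ad-shmGULL+hGULL and 8 of 10 in Ad-shmGULL.

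Of the 10 members, 1 changed after knockdown (0 rose, 1 fell), against 3.23% of all tested genes, 0.794% for genes that fell. The 529 genes behind this share became 33 with only the 2 groups in the model, 236 with no filter, 344 with no mean-variance trend, 165 to 196 without Ad-Ctrl mouse 2, 3 or 4 or Ad-shmGULL mouse 2, 305 to 338 without Ad-shmGULL mouse 4 or any 1 rescue mouse, and 946 and 1057 without Ad-Ctrl mouse 1 and Ad-shmGULL mouse 3. That gene was Crem (chromosome 18, 3266354 to 3337773 in GRCm38.p6), whose locus encodes activators and repressors that bind the same CRE as CREB, among them the cAMP-induced repressor ICER. Gene-level TPM does not separate these forms. Crem was 7.51, 9.22, 9.02 and 9.02 TPM in the 4 Ad-Ctrl mice, 5.02, 6.37, 5.78 and 6.31 in the 4 Ad-shmGULL mice, and 9.07, 8.48, 8.78 and 8.18 in the 4 Ad-shmGULL+hGULL mice. Every knockdown mouse was below every control mouse and below every rescue mouse, while control and rescue mice overlapped. The knockdown mean was 67.6% of control (5.87 ± 0.624 against 8.69 ± 0.793 TPM, SD, n = 4 each), a log2 fold change of -0.50 (95% interval -0.71 to -0.28, limma adjusted p = 0.0227, exact two-sided permutation p = 0.0286, the smallest that 4 mice against 4 allow). With the median change over all genes taken away, this was -0.58. Genes were also counted by a second criterion, an unadjusted P under 0.05 together with a change of more than 0.5 on the log2 scale. Crem fell just short of that fold, and 0 of 10 members passed it, against 7.65% of all genes. At an unadjusted P under 0.05 alone there were 3 members, Crem, Atf1 and Prkaca, against 20.2%. The adjusted p was 0.113 when the rescue mice were left out of the model, and it was 0.0665, 0.0727 and 0.0602 without Ad-Ctrl mouse 2, 3 and 4 in turn, with log2 fold changes of -0.47, -0.48 and -0.48.

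Between rescue and knockdown, the log2 fold change of Crem was 0.49 (95% interval 0.28 to 0.70), the rescue mean being 147% of the knockdown mean, but its adjusted p was 0.282. In that comparison 0% of tested genes had an adjusted p under 0.05 from limma, and 0 of 10 members did. Past the fold of 0.5 there were 0 of 10, against 3% of all genes. At an unadjusted P under 0.05 there were 2 members, Crem (0.000292) and Atf1 (0.0138), against 10.7% of all genes. The rescue group had 99.3% of the control level of Crem, a log2 fold change of -0.01 with an interval of -0.22 to 0.21. The comparisons after knockdown and between rescue and knockdown share the 4 Ad-shmGULL mice, so a low value in those mice enters both with opposite sign.

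Atf1, a close relative of CREB that pairs with it, was 29.1, 25.7, 28.3 and 27.7 TPM in the Ad-Ctrl mice, 22.0, 25.6, 24.8 and 24.7 in the Ad-shmGULL mice and 29.5, 26.7, 28.8 and 27.8 in the rescue mice. The knockdown mice were again the lowest, although the highest of them (25.62) and the lowest control (25.68) nearly met. The knockdown mean was 87.7% of control, a log2 fold change of -0.18 (95% interval -0.34 to -0.02) with a limma adjusted p of 0.182. With median-of-ratios scaling this was -0.29 with an adjusted p of 0.0274, and with quantile normalization -0.27 with 0.0295. Between rescue and knockdown it was 0.21 (0.05 to 0.37, limma adjusted p = 0.402). Crem and Atf1 were thus the 2 members whose knockdown mice lay wholly below the control mice, against 2.06% of all tested genes, and wholly below the rescue mice, against 5.40% of genes with such a higher rescue group.

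Creb1, which encodes CREB itself, was 6.77, 5.16, 6.67 and 6.89 TPM in Ad-Ctrl, 5.44, 8.14, 5.92 and 6.06 in Ad-shmGULL, and 8.49, 7.78, 6.52 and 7.27 in Ad-shmGULL+hGULL. The 3 groups overlapped. Its log2 fold change after knockdown was -0.002, with an interval of -0.29 to 0.28 that leaves a change of the size seen in Crem outside it. The fold changes of the rescue group were 0.21 against knockdown and 0.21 against control (limma adjusted p = 0.568 and 0.330).

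**Figure D2:**
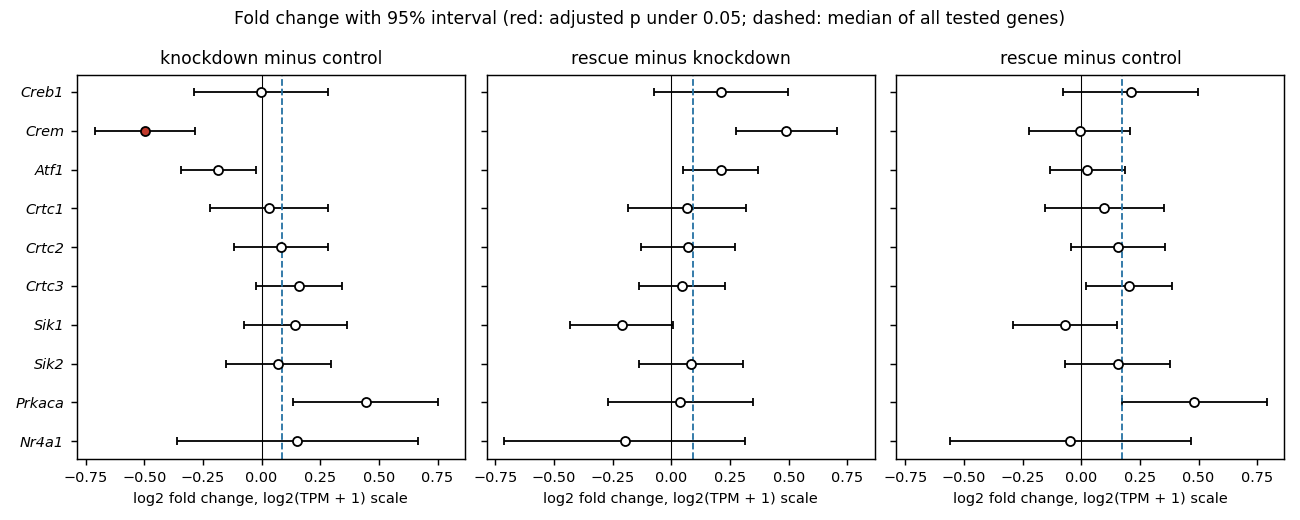
Log2 fold change of each member on the log2(TPM + 1) scale (x axis) in the 3 comparisons, with 95% intervals from limma. The dashed line is the median of all tested genes, and red marks an adjusted p under 0.05, which Crem alone has, after knockdown (-0.50).

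As a description that does not depend on how a library is scaled, and that was chosen after the values were seen, Crem was set against the summed TPM of Creb1, Crem and Atf1. Its share was 17.3%, 23.0%, 20.5% and 20.7% in the Ad-Ctrl mice, 15.5%, 15.9%, 15.9% and 17.0% in the Ad-shmGULL mice, and 19.3%, 19.8%, 19.9% and 18.9% in the rescue mice. The highest knockdown mouse was just under the lowest control mouse. Group means were 20.4 ± 2.33% (SD, n = 4), 16.1 ± 0.668% and 19.5 ± 0.460%. The difference between knockdown and control was -4.32 percentage points, and between -5.34 and -3.45 when any 1 of the 8 mice was left out. The share of Atf1 was 64.8%, 66.5% and 63.6% on average in the same order of groups, with overlapping mice. The share of Creb1 was 14.9%, 17.4% and 16.9%, and its knockdown mice (16.2% to 20.3%) were all above its control mice (12.9% to 15.8%). Shares are parts of a whole, so lower TPM of Crem and Atf1 raises the share of Creb1. Creb1 itself averaged 6.39 TPM after knockdown and 6.37 in control, with overlapping mice. These shares are given with no test.

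**Figure D3:**
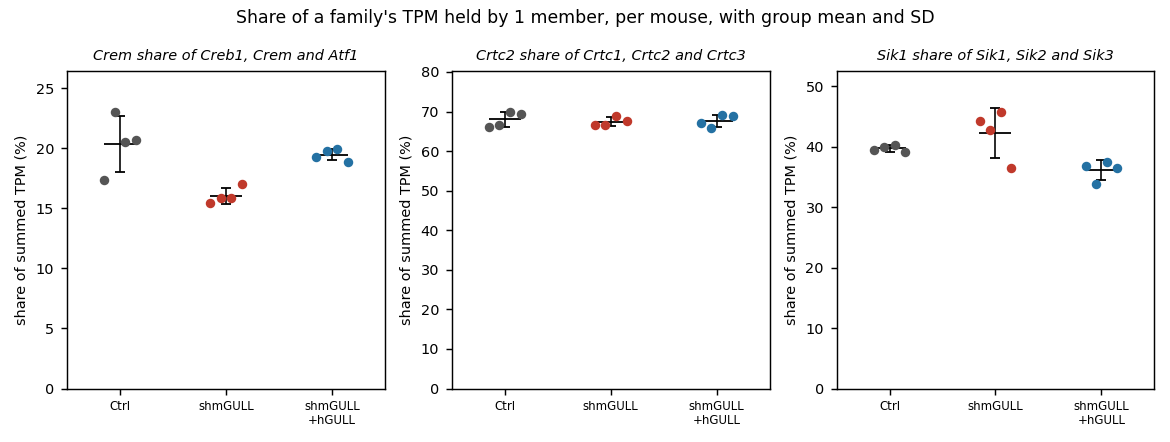
Share (%) of the summed TPM of a family held by Crem, Crtc2 and Sik1, per mouse (points), with group mean and SD (n = 4), each panel on its own axis from 0. The Crem share averages 16.1% in Ad-shmGULL against 20.4% and 19.5% in the other groups, while the Crtc2 share averages 67.5% to 68.0%.

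The CRTC coactivators showed no change at the adjusted threshold in any comparison. Crtc2 (chromosome 3, 90253858 to 90264125), the coactivator at the centre of the study, had the highest TPM of its family. It was 23.2, 24.1, 27.0 and 29.7 TPM in Ad-Ctrl, 26.0, 29.6, 25.8 and 28.6 in Ad-shmGULL, and 29.0, 26.0, 30.3 and 30.6 in Ad-shmGULL+hGULL. All 3 groups overlapped. The log2 fold change after knockdown was 0.08, with an interval of -0.12 to 0.28 (limma adjusted p = 0.670). It was 0.07 (-0.13 to 0.27) between rescue and knockdown and 0.16 (-0.04 to 0.36) between rescue and control. With the median change over all genes taken away, these were -0.004, -0.02 and -0.02. Crtc2 held 68.0%, 67.5% and 67.7% of the summed TPM of the 3 coactivators in the 3 groups.

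Crtc3, a coactivator of the same family, was 6.66 to 7.62 TPM in Ad-Ctrl, 7.40 to 8.77 in Ad-shmGULL and 8.20 to 8.45 in Ad-shmGULL+hGULL. All 4 rescue mice were above all 4 control mice, but 21.4% of all tested genes showed this. Its log2 fold change between rescue and control was 0.20 (limma adjusted p = 0.160), or 0.03 with the median change taken away. Crtc1, best known from the brain, ranged from 4.25 to 6.13 TPM over the 12 mice, with log2 fold changes of 0.03, 0.07 and 0.10 in the 3 comparisons (after knockdown, rescue against knockdown, rescue against control).

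Of the kinases, Prkaca had the largest fold change, without passing the adjusted threshold. It was 103, 71.2, 77.4 and 84.9 TPM in Ad-Ctrl, 95.2, 146, 104 and 116 in Ad-shmGULL, and 124, 131, 102 and 113 in Ad-shmGULL+hGULL. The highest control mouse was above the lowest mouse of each of the other groups. The knockdown mean was 137% of control (log2 fold change 0.44, 95% interval 0.13 to 0.75, limma adjusted p = 0.103) and the rescue mean 139% (0.48, 0.17 to 0.79, adjusted p = 0.0802), while rescue and knockdown differed by 0.04 (-0.27 to 0.35). Without Ad-Ctrl mouse 1, the highest of the controls, the adjusted p was 0.0441 after knockdown and 0.0347 between rescue and control. The rescue-to-control adjusted p was also 0.0441 without Ad-shmGULL mouse 2, 0.0420 with only those 2 groups in the model and 0.0134 with array weights. These were the exceptions. Between rescue and control, 2 of 9 alternative settings and 2 of 12 fits without 1 mouse were under 0.05, with limma adjusted p up to 0.237 and 0.225. The log2 fold change there was as low as 0.28. After knockdown it was 0 of 9 and 1 of 12, with limma adjusted p up to 0.216 and 0.256.

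Sik1, a CREB-induced kinase that restrains CRTC proteins, was 25.3, 24.7, 31.1 and 27.9 TPM in Ad-Ctrl, 28.5, 34.1, 32.4 and 26.0 in Ad-shmGULL, and 26.0, 23.6, 27.8 and 26.1 in Ad-shmGULL+hGULL. The TPM of the groups overlapped. Sik1 held 39.7 ± 0.541%, 42.2 ± 4.08% and 36.1 ± 1.64% (SD, n = 4) of the summed TPM of Sik1, Sik2 and Sik3. For this share, given with no test, every rescue mouse (33.8% to 37.5%) was below every control mouse (39.1% to 40.3%). The log2 fold change of Sik1 was 0.14 (-0.08 to 0.36) after knockdown, -0.21 (-0.43 to 0.01) between rescue and knockdown and -0.07 (-0.29 to 0.15) between rescue and control (limma adjusted p = 0.464, 0.474 and 0.695). Sik2, its relative with the same substrates, was 8.51 to 11.4 TPM in Ad-Ctrl, 10.1 to 11.5 in Ad-shmGULL and 10.6 to 13.3 in Ad-shmGULL+hGULL, with log2 fold changes of 0.07, 0.08 and 0.15. No difference in Sik2 passed the adjusted threshold (limma adjusted p = 0.748, 0.769 and 0.354).

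Nr4a1 encodes a nuclear receptor that is an immediate target of CREB in hepatocytes, and its promoter carried the 4 cores printed above. It was 4.26, 2.56, 2.66 and 3.30 TPM in Ad-Ctrl, 6.97, 3.13, 2.91 and 2.5 in Ad-shmGULL, and 3.37, 2.52, 3.64 and 2.63 in Ad-shmGULL+hGULL. One knockdown mouse stood well above the other 11, which lay between 2.5 and 4.26. The log2 fold change after knockdown was 0.15 with a wide interval, -0.36 to 0.67 (limma adjusted p = 0.773), and -0.11 without that mouse. At this spread a change as large as that of Crem could be missed.

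Across the members as a whole, the median log2 fold change was 0.08 after knockdown, 0.07 between rescue and knockdown and 0.13 between rescue and control, against 0.09, 0.09 and 0.17 for all tested genes. Positive fold changes were found for 7, 8 and 7 of the 10, against 65.5%, 70.9% and 81.9% of all genes. These counts depended on scaling, being 4, 3 and 3 of 10 with median-of-ratios scaling, against 48.3%, 52.2% and 48.7% of all genes. In the comparison of rescue with control, 0 of 10 members had an adjusted p under 0.05 from limma, against 2.15% of all genes, 0 passed the fold of 0.5, against 7.49%, and 2 had an unadjusted P under 0.05 (Prkaca and Crtc3), against 25.3%. The 352 genes behind the 2.15% became 12 and 13 with median-of-ratios and quantile scaling, 9 with no filter, 3 to 6 without Ad-Ctrl mouse 2, 3 or 4 or any 1 rescue mouse, 26 without Ad-shmGULL mouse 4, 638 to 1068 without Ad-Ctrl mouse 1 or Ad-shmGULL mouse 1, 2 or 3, and 1693 and 3184 with 2 groups in the model and with array weights, so that share is a weak reference.

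Markers of other cell types were compared because bulk liver RNA mixes cells, and fewer cells of a type cannot be told apart from less RNA per cell. Of the 6 endothelial markers, all had a positive fold change after knockdown (median 0.39). Stab2, a scavenger receptor gene of sinusoidal endothelium, rose by 0.54 (limma adjusted p = 0.0476), with all knockdown mice above all control mice. This call was not examined under the alternative settings. How many of all genes had knockdown mice wholly above control mice was not counted. Among the stellate cell markers 5 of 6 had a positive fold change (median 0.23), with 0.28 for Reln (limma adjusted p = 0.0723) and its knockdown mice above all control mice. The endothelial markers summed to 108 to 187 TPM in Ad-Ctrl, 172 to 239 in Ad-shmGULL and 174 to 209 in Ad-shmGULL+hGULL. Prkaca had its higher means in the same groups. Ad-Ctrl mouse 1, highest in Prkaca among controls, was also highest in these markers, with Ad-Ctrl mouse 2 lowest in both. Those mice were likewise highest and lowest among controls for the T, NK and B cell, stellate cell and cholangiocyte markers. Among knockdown mice, mouse 2 was highest and mouse 1 lowest in both Prkaca and the endothelial markers. The same order held for the Kupffer cell and macrophage, T, NK and B cell, stellate cell and cholangiocyte markers. Mouse 2 was instead lowest of the knockdown mice for the neutrophil and monocyte markers (131 TPM) and the hepatocyte markers. It also had the most genes above 1 TPM of its group (16929), and mouse 1 the fewest (16000). Among rescue mice, Prkaca was highest in mouse 2 (131 TPM) but the endothelial markers in mouse 4 (209 TPM). The 7 Kupffer cell and macrophage markers summed to 385 to 655, 333 to 599 and 427 to 560 TPM, and the 6 neutrophil and monocyte markers to 114 to 252, 131 to 282 and 105 to 152 TPM. The T, NK and B cell markers summed to 14.2 to 44.5, 16.6 to 31.0 and 23.2 to 32.7 TPM, the stellate cell markers to 75.3 to 138, 109 to 143 and 109 to 122 TPM, and the cholangiocyte markers to 68.1 to 105, 56.9 to 140 and 83.1 to 118 TPM. No marker was at 0 in every mouse. The hepatocyte markers had a median log2 fold change of -0.37 after knockdown, with 4 of 6 lower and 2 higher. Of these markers, 3 had an unadjusted P under 0.05, against 20.2% of all genes, and none had an adjusted p under 0.05 from limma. Among them Cps1, a urea cycle enzyme gene, was at 72.8% of control with all knockdown mice below all control mice (limma adjusted p = 0.0681), and Apoa1 was at 66.5%. In the rescue group Cps1 was at 82.5% and Apoa1 at 65.6% of control. All 6 hepatocyte markers had a negative log2 fold change there (median -0.26), with none at an adjusted p under 0.05 from limma. The part of the endothelial and hepatocyte markers in the values of Prkaca, Crem and the other genes was not tested.

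The wider pathway was followed through 5 gene lists with 129 genes in the table, of which 113 passed the filter. After knockdown, 4 of the 113 rose and 1 fell, against 2.44% and 0.794% of all tested genes. Their median change was 0.08, close to the 0.09 of all genes. Between rescue and control, 3 rose and 0 fell, against 2.15%, and between rescue and knockdown 0 changed, with 12 at an unadjusted P under 0.05 (10.7% of all genes).

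Among the CREB target genes, 15 of 18 were tested. After knockdown 1 rose and 0 fell, against 2.44% and 0.794% of all tested genes. Fold changes were positive in 6 and negative in 9 (median -0.02), against 65.5% positive and a median of 0.09 over all genes. Past the fold of 0.5, 1 was higher and 2 were lower, against 7.65% of all genes in either direction. G6pc, which encodes the glucose-6-phosphatase catalytic subunit of the last step of gluconeogenesis, was 454 to 567 TPM in Ad-Ctrl, 821 to 1180 in Ad-shmGULL and 668 to 833 in Ad-shmGULL+hGULL. All knockdown and all rescue mice were above all control mice, the latter holding for 21.4% of all tested genes. The share of all genes with such knockdown mice was not counted. Against control, G6pc rose by 0.93 after knockdown (limma adjusted p = 0.00606) and by 0.54 in the rescue group (adjusted p = 0.0441). Between rescue and knockdown its log2 fold change was -0.39, with overlapping mice and without passing the adjusted threshold. The call after knockdown held in all 9 alternatives and without any 1 mouse, whereas that of the rescue group was lost with median-of-ratios scaling (limma adjusted p = 0.305), quantile normalization (0.130) and no filter (0.0912), with no mean-variance trend, and without Ad-Ctrl mouse 2, 3 or 4, Ad-shmGULL mouse 4 or any 1 rescue mouse (up to 0.149). Pck1, which encodes the cytosolic enzyme at the entry to gluconeogenesis, had lower means, with 2843 to 4505 TPM in Ad-Ctrl, 1630 to 3216 in Ad-shmGULL and 1717 to 3049 in Ad-shmGULL+hGULL. The groups overlapped through 1 control mouse, and log2 fold changes against control were -0.75 and -0.65 (limma adjusted p = 0.0950 and 0.122). The 2 target genes printed above, Pck1 with an exact core and G6pc with no exact copy, had fold changes of opposite sign. Of these, that of G6pc passed the test. A link between the cores and the fold changes was not tested.

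Ppargc1a, the coactivator gene PGC-1α that CREB induces in fasting, was 7.96 to 13.1 TPM in Ad-Ctrl, 8.49 to 11.5 in Ad-shmGULL and 8.87 to 10.5 in Ad-shmGULL+hGULL. Its log2 fold changes were -0.06, -0.01 and -0.07, with overlapping groups and an interval of -0.37 to 0.24 after knockdown. Egr1, an immediate early gene with CREB sites, was 9.65 to 16.6, 3.83 to 13.8 and 7.76 to 21.9 TPM in the 3 groups. Its fold change between rescue and knockdown was 0.82 (unadjusted P = 0.0305, limma adjusted p = 0.424), with overlapping mice, and it was the 1 gene of the 5 lists beyond the fold threshold there.

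**Figure D4:**
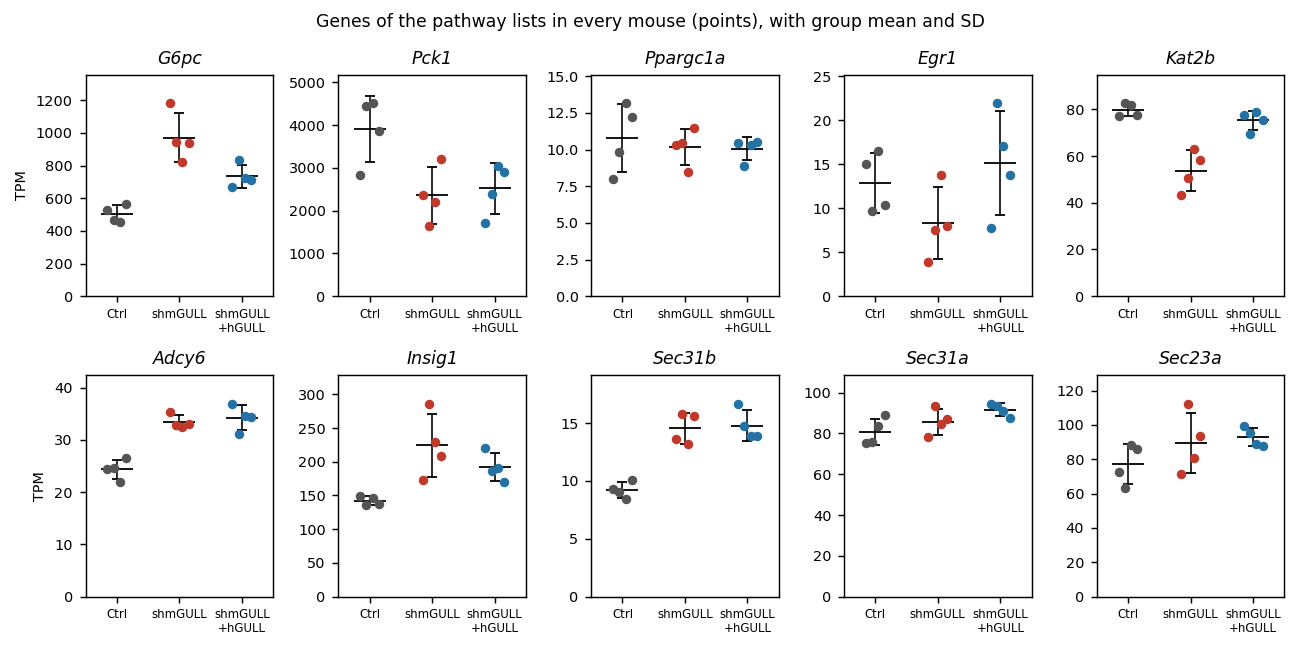
TPM (linear axis from 0, own scale per panel) of 10 genes of the pathway lists in each mouse, with group mean and SD (n = 4). G6pc, Adcy6, Insig1 and Sec31b are higher in all 4 Ad-shmGULL mice than in any Ad-Ctrl mouse, and Kat2b is lower.

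Of 30 tested genes of cAMP and protein kinase A signalling, 1 rose after knockdown and 0 fell, against 2.44% and 0.794% of all tested genes. The gene that rose was Adcy6, an adenylyl cyclase that makes cAMP. It was 21.9 to 26.5 TPM in Ad-Ctrl, 32.5 to 35.4 in Ad-shmGULL and 31.1 to 36.9 in Ad-shmGULL+hGULL. Both shRNA groups lay wholly above control and overlapped each other. Rescue mice lay wholly above control mice in 21.4% of all tested genes and in 36 of the 113 pathway genes. Knockdown mice did so in 10 of the 113, and their share over all genes was not counted. The log2 fold change of Adcy6 was 0.45 after knockdown (limma adjusted p = 0.0139) and 0.48 between rescue and control (adjusted p = 0.0345), with 0.03 between rescue and knockdown. For Adcy6 the call after knockdown was lost with median-of-ratios scaling (limma adjusted p = 0.0653) and with 2 groups in the model (0.0671). The call between rescue and control was lost with median-of-ratios scaling (0.224), quantile normalization (0.179) and no filter (0.0567), with no mean-variance trend, and without Ad-Ctrl mouse 2, 3 or 4, Ad-shmGULL mouse 4 or any 1 rescue mouse (up to 0.141).

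Of 35 tested cofactors and regulators of CRTC and CREB, 0 rose after knockdown and 1 fell, against 2.44% and 0.794% of all tested genes. The gene that fell was Kat2b, which encodes the acetyltransferase PCAF, a partner of CREB-binding protein. It was 77.2, 82.5, 82.0 and 77.7 TPM in Ad-Ctrl, 43.2, 50.5, 63.2 and 58.2 in Ad-shmGULL, and 77.4, 69.6, 78.6 and 75.2 in Ad-shmGULL+hGULL. As for Crem, the knockdown mice were below all control mice (so for 2.06% of all tested genes) and below all rescue mice (5.4%). Control and rescue overlapped. Its log2 fold change was -0.58 (95% interval -0.80 to -0.35, limma adjusted p = 0.0143) after knockdown, 0.49 (0.27 to 0.71, adjusted p = 0.282) between rescue and knockdown and -0.09 (-0.31 to 0.14) between rescue and control. For Kat2b the call after knockdown was lost with 2 groups in the model (limma adjusted p = 0.0723). Of the 16 tested other CREB and ATF factors with a basic leucine zipper, 0 rose and 0 fell in any of the 3 comparisons. At an unadjusted P under 0.05 there were 2, 4 and 1, against 20.2%, 10.7% and 25.3% of all genes.

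Of the 19 tested genes of the COPII coat and of SREBP processing, 2 rose after knockdown and 0 fell. Over all tested genes these shares were 2.44% and 0.794%. Sec31b, a paralog of the outer coat gene Sec31a, was 8.43 to 10.1 TPM in Ad-Ctrl, 13.2 to 15.8 in Ad-shmGULL and 13.8 to 16.7 in Ad-shmGULL+hGULL. It rose by 0.60 on the log2 scale after knockdown (limma adjusted p = 0.00995) and by 0.63 in the rescue group (adjusted p = 0.0307). The first call was lost with 2 groups in the model (limma adjusted p = 0.0531), the second with median-of-ratios scaling (0.0809), quantile normalization (0.0745) and no filter (0.0523), and without Ad-Ctrl mouse 2, 3 or 4 or any 1 rescue mouse (up to 0.127). Insig1, whose protein retains the SREBP escort SCAP in the endoplasmic reticulum, was 135 to 150 TPM in Ad-Ctrl, 174 to 286 in Ad-shmGULL and 171 to 220 in Ad-shmGULL+hGULL, and rose by 0.63 after knockdown (adjusted p = 0.0253). Its difference between rescue and control, 0.42, had an adjusted p of 0.0868. The Insig1 call was lost with 2 groups in the model (limma adjusted p = 0.0886), with no filter (0.0541) and without Ad-Ctrl mouse 2, 3 or 4 or Ad-shmGULL mouse 2 (up to 0.0717).

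The coat genes tied most closely to CRTC2 did not pass the test. Sec31a was 75.1 to 88.8, 78.1 to 93.3 and 87.5 to 94.6 TPM in the 3 groups, with log2 fold changes of 0.09 after knockdown and 0.18 between rescue and control (limma adjusted p = 0.584 and 0.167). Sec23a, its inner coat partner, was 63.0 to 88.0, 71.4 to 112 and 88.0 to 99.2 TPM, with log2 fold changes of 0.20 and 0.27 (adjusted p = 0.444 and 0.23). The TPM of Sec31a was thus several times that of Sec31b in every mouse, so that the paralog that rose was the minor one.

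The protein-coding genes whose log2(TPM + 1) followed 3 of the members most closely were found among 12108 genes, by Pearson correlation over the 12 mice. These mice belong to 3 groups and share library composition, so the values describe likeness of pattern only. For Crtc2 they were Esrp2 (r = 0.916), Tollip (0.889) and Mon2 (0.888), with rank correlations of 0.902, 0.804 and 0.818. For Sik1 they were Tdrp (0.790), Hsd17b7 (0.762) and Wfikkn1 (0.760), with rank correlations of 0.895, 0.650 and 0.420. For Nr4a1 they were Mapkapk2 (0.933), Fuom (0.887) and Scarf2 (0.881), with rank correlations of 0.930, 0.587 and 0.427. Chosen after its values were seen, Crem was followed most closely by Bfar (0.923), Wipi2 (0.921) and Clec2d (0.921), with rank correlations of 0.790, 0.685 and 0.909.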

How the data were processed

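Liver RNA-seq of 12 mice was analysed, grouped by the sample titles. Per the labels, the authors processed reads with fastp 0.23.2, FastQC 0.11.8, HISAT2 2.2.1.0 and featureCounts (Subread 2.0) on GRCm38.p6, and deposited TPM values for 55385 features, 108 of whose gene names are used more than once. Depth per mouse is unknown because TPM sum to 1000000.

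From these values, log2(TPM + 1) was fitted in R 4.3.3 with limma 3.58.1 (1 model, 3 groups, mean-variance trend) for 16378 genes whose mean reached 1 TPM, with Benjamini-Hochberg adjustment over all of them. Single genes were also compared by exact two-sided permutation of 4 mice against 4 (smallest p 0.0286). The fit was tested on simulated data. Gene locations and promoters came from RefSeq GRCm38.p6 and were searched in Python 3.11.15.

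The members and lists were chosen with earlier results of these data known. The genes named are the 10 members, for each list and comparison those with an adjusted p under 0.05 (up to 4) or otherwise past the fold threshold (up to 3), 5 fixed genes (Pck1, G6pc, Ppargc1a, Sec23a and Sec31a), and the 3 genes most like each of Crtc2, Sik1 and Nr4a1. As alternatives, a smaller pseudocount (0.1), no low-value filter, a mean of 5 TPM or more, median-of-ratios scaling, quantile normalization, 2 groups only, no trend, array weights, a block for replicate number, and leaving out each mouse were tried. Family shares and the likeness to Crem were chosen after seeing the data.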

Additional observations from a re-analysis of the deposited data

Results flagged for a closer look

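Of 60 sets of 4 mice examined (20 genes in 3 groups), 4 held 1 mouse far from the other 3 by Dixon's criterion, which flags about 1 in 20 by chance. Creb1 was 5.16 TPM in Ad-Ctrl mouse 2, the lowest of its group. Crem was 7.51 TPM in Ad-Ctrl mouse 1, the lowest control, and still above all 4 knockdown mice. Nr4a1 was 6.97 TPM in Ad-shmGULL mouse 1, the highest of all 12 mice. Ppargc1a was 8.87 TPM in Ad-shmGULL+hGULL mouse 2, the lowest of its group.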

How the results depend on the processing

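Depth is unknown, so precision rests on 4 mice per group, and TPM fix the total of each library, so scaling moves every gene: the median of all genes between rescue and control was 0.17 as deposited and -0.01 with median-of-ratios scaling. Of 267 single-gene values of the members under alternatives that left out no mouse, 238 kept their direction and their side of an adjusted p of 0.05, and 24 changed sign, none of them with an adjusted p under 0.05 in either setting. The cause was not tested. With median-of-ratios and quantile scaling these values were -0.064 and -0.068 (Crtc1), -0.028 and -0.011 (Sik2) and, for the first scaling, -0.024 (Crtc2) after knockdown. Between rescue and knockdown they were -0.010 and -0.026 (Crtc1), -0.018 and -0.034 (Crtc2), -0.039 and -0.051 (Crtc3), -0.0041 and -0.021 (Sik2) and -0.056 and -0.032 (Prkaca). Between rescue and control they were -0.17 and -0.16 (Atf1), -0.074 and -0.094 (Crtc1), -0.042 and -0.032 (Crtc2) and -0.033 and -0.032 (Sik2). Nr4a1 was -0.036 after knockdown with array weights. When single mice were left out, the values that crossed 0 ranged after knockdown from -0.11 to 0.060 (Creb1), -0.036 to 0.11 (Crtc1), -0.0061 to 0.12 (Sik2) and -0.11 to 0.28 (Nr4a1). Between rescue and knockdown they ranged from -0.012 to 0.13 (Crtc1), -0.047 to 0.16 (Prkaca) and -0.33 to 0.065 (Nr4a1), and between rescue and control from -0.068 to 0.020 (Crem), -0.0082 to 0.052 (Atf1) and -0.12 to 0.068 (Nr4a1).

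The count of members past the fold threshold after knockdown, 0, was 1 with a pseudocount of 0.1 and with either scaling, and 0 to 2 without single mice. The count with an adjusted p under 0.05, 1, was 2 with either scaling, 0 with 2 groups only, and 0 to 2 without single mice. Between rescue and knockdown, 0 members were past the fold threshold, but 1 with a pseudocount of 0.1 (0 to 1 without single mice). Between rescue and control, 0 members had an adjusted p under 0.05, but 1 with 2 groups only and with array weights (0 to 1 without single mice), and 0 to 1 were past the fold threshold without single mice. Of the pathway genes after knockdown, 5 had an adjusted p under 0.05, but 8 at a mean of at least 5 TPM and 1 with 2 groups only (4 to 9 without single mice). Over all genes these settings gave 529 of 16378, 645 of 10948 and 33 of 16378 in that order. Past the fold threshold were 7 pathway genes (6 to 11), against 7.65% of all genes. Between rescue and knockdown 1 pathway gene was past the fold threshold, against 3% of all genes, but 0 with quantile normalization (0 to 3). Between rescue and control 6 pathway genes were past the fold threshold, against 7.49% of all genes, but 3 with median-of-ratios scaling (3 to 7). The 3 with an adjusted p under 0.05 there became 0 with no filter and with either scaling, and 1 with no trend. They became 5 at a mean of at least 5 TPM, 13 with 2 groups only and 29 with array weights (0 to 8 without single mice). Over all genes these last 3 settings gave 568 of 10948, 1693 of 16378 and 3184 of 16378.

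Same-numbered mice did not deviate together (correlations of -0.244 to 0.154, 2 of 12 pairs over 0.1, 4 of 12 mice closest to their own number). With a replicate block, the counts of members after knockdown were 1 at an adjusted p under 0.05 and 0 past the fold threshold, as without it, and those of the pathway genes were 5 and 8. The block changed no call of a member. For the pathway genes it ended the rescue call of G6pc (limma adjusted p = 0.0729).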
